A study of Arabidopsis thaliana with 16 samples.

Results

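Glucose (Glc) was added to abscisic acid (ABA) in germinating seeds labelled *sweet1*, and the 4 libraries of ABA + Glc were compared here with the 4 libraries of ABA alone. These 8 libraries are those labelled ABA and ABA + glucose among the 16 RNA sequencing libraries of whole seeds, which also hold 4 control and 4 Glc libraries. All 16 libraries are labelled as *sweet1*, a single line of the Col-0 background with a T-DNA insertion in *SWEET1*, so the controls share that label. All seeds were imbibed for 3 d at 4 °C and kept on agar medium under constant light at 22 °C. At 24 h after imbibition (HAI) they were moved for 6 h into liquid medium that held nothing further (control), 60 mM Glc, 5 µM ABA, or 60 mM Glc together with 5 µM ABA. RNA was extracted at 30 HAI. The labels give 4 biological replicates per treatment, and the wild type was not analysed here. The comparison asks what Glc changes in the transcripts of seeds that already receive ABA.

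ABA keeps a seed from germinating. It binds PYR/PYL receptors, which hold back clade A protein phosphatases 2C, and the SnRK2 kinases so released activate bZIP transcription factors that bind an ACGTG core in the promoters of late embryogenesis abundant (LEA) and other desiccation genes. Glc is the fuel and building material of the growing embryo and also a signal. The SnRK1 kinase senses low energy, and its marker genes are high in the dark and fall when sugar is given. Germination itself needs wall loosening by expansins and related enzymes, which gibberellin promotes.

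Values carry the header TPM (transcript abundance corrected for length) in the deposited files, and TPM means these values here. Their sum per library was 951008 to 1053766, so they had been rescaled after kallisto, by a step that is not stated. They are not counts, so library depth is unknown and errors come from the spread of the libraries. *SWEET1* itself held 11.1, 13, 13.3 and 10.8 TPM in control replicates 1 to 4, 12.4, 13.6, 14.5 and 17.6 TPM in the Glc libraries, 14.4, 13, 16.9 and 17.1 TPM in the ABA libraries and 14.9, 11.5, 8.29 and 11.2 TPM in the ABA + Glc libraries. The study describes this line as a null mutant in which it detected no *SWEET1* transcript, so the levels in all 16 libraries go against that description. The values do not show whether the reads lie before or after the insertion, and the source of this signal was not tested. Each group below is therefore that of the libraries labelled *sweet1*. From ABA to ABA + Glc *SWEET1* had a log2 fold change of -0.42 (SE 0.14, limma adjusted p = 0.12) and did not pass the test, except without ABA + Glc replicate 1 (-0.55, limma adjusted p = 0.0324). Of all 16 libraries, ABA + Glc replicate 3 stood apart, at -42.86 on the second principal component where the others lay between -10.76 and 12.31. The authors left out replicate 3 of both groups, so the results were also computed without both. Seed storage and oil body genes, markers of the embryo, summed to 3325 to 3725 TPM in ABA libraries and 2812 to 3336 TPM in ABA + Glc libraries. In control and Glc libraries they summed to 573 to 956 TPM and 753 to 1445 TPM, so their level moved with the treatment. The median log2 fold change over this list from ABA to ABA + Glc was 0.22. Its sums are therefore not read as the share of embryo. Of 5 endosperm and 10 seed coat markers, 3 and 6 were high enough to test, 0 passed in either list, and their summed levels were 1325 to 1584 and 428 to 511 TPM under ABA and 1548 to 1735 and 476 to 498 TPM under ABA + Glc. At an unadjusted p under 0.05, 0 endosperm markers and 1 seed coat marker were higher. The endosperm markers *ZOU* and *ALE1* were too low to test. In whole seeds, fewer cells of a type and less RNA per cell cannot be told apart.

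Adding Glc to ABA lowered more genes than it raised. Of 17500 genes that exceeded 0.5 TPM in 50% or more of the libraries, 374 fell (2.14%) and 166 rose (0.949%). Counts of genes that passed in the lists and families below are to be read beside these shares. To pass, a gene needed an adjusted p below 0.05 in limma (Benjamini-Hochberg) and a log2 change of 0.289 or more in size. Changes are on the scale of log2(TPM + 0.5), which understates those of low genes. The changes were small. The median was -0.53 over the genes that fell, 25 of which fell by 1 or more, and 0.45 over those that rose, the largest of which was 0.98. Over all genes tested the median was 0.00. Between the 4 ABA and the 4 ABA + Glc libraries, 514 of the 540 changed genes did not overlap, as against 9.87% of all genes tested. The changed genes were called from these same libraries, so this separation largely follows from the call and is no further support for it. Without both replicates 3, 335 of 17498 genes fell (1.91%) and 128 rose (0.732%). Of these, 269 falls and 93 rises were the same genes. Among the 639 genes that passed in either fit and were tested in both, 0 changed direction. In a fit on the ABA and ABA + Glc libraries alone, 296 fell and 67 rose.

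**Figure D1:**
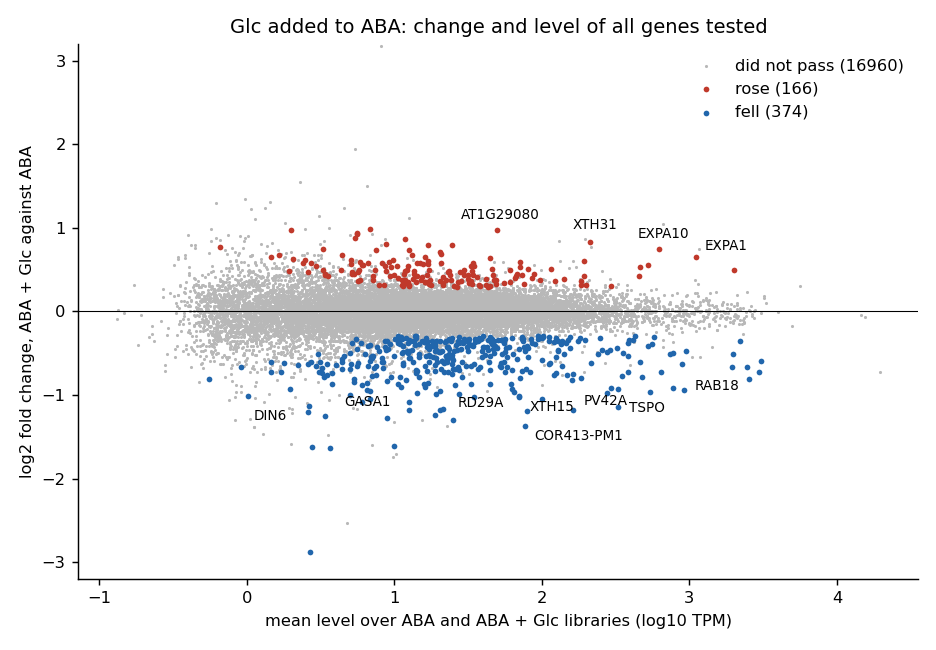
Log2 fold change from ABA to ABA + Glc (vertical axis) against the mean level over both groups (horizontal axis, log10 TPM) for the 17500 genes tested. The 374 falls, in blue, reach -2.88, and the 166 rises, in red, reach 0.98.

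Most of the largest falls were of transcripts far lower in control seeds than under ABA. *GASA1* and AT1G14642 are exceptions, with control means of 17.2 ± 1.2 TPM and 11 ± 4.45 TPM and ABA means of 17.7 ± 2.49 TPM and 15.4 ± 9.01 TPM (SD, n = 4 each). Named here are the 12 largest falls whose higher group averaged 10 TPM or more and whose libraries did not overlap, of 414 changed genes that met both conditions. In a fall the higher group is ABA, so a level of 10 TPM or more under ABA was a condition of being named. The lack of overlap was another, and the control level was not part of the rule. *COR413-PM1* (AT2G15970) encodes a cold-regulated protein of the plasma membrane and lies on chromosome 2 from 6949851 to 6951192 (plus strand). It held 109, 117, 106 and 111 TPM in ABA replicates 1 to 4 and 50.7, 45, 32.2 and 44.7 TPM in ABA + Glc replicates 1 to 4. All ABA + Glc libraries lay below every ABA library, as the rule required, with replicate 3 lowest. The log2 fold change of *COR413-PM1* was -1.37 (SE 0.16, limma adjusted p = 0.000107; -1.26 without both replicates 3), and the control and Glc means were 7.51 ± 1.74 TPM and 5.99 ± 1.31 TPM (SD, n = 4 each).

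*TSPO* (AT2G47770) encodes a tryptophan-rich membrane protein and lies on chromosome 2 from 19568464 to 19569507 (plus strand). *TSPO* held 473, 457, 421 and 462 TPM in ABA replicates 1 to 4 and 209, 215, 187 and 212 TPM in ABA + Glc replicates 1 to 4. The ABA + Glc libraries lay in a narrow band well below the ABA libraries and far above the control mean of 16.8 ± 2.51 TPM (SD, n = 4). For *TSPO* the log2 fold change was -1.14 (SE 0.14, limma adjusted p = 0.000166; -1.13 without both replicates 3). *PV42A* (AT1G15330), whose protein has the cystathionine beta-synthase domains also found in SnRK1 gamma subunits, held 229, 212, 226 and 228 TPM in ABA replicates 1 to 4 and 107, 106, 79 and 104 TPM in ABA + Glc replicates 1 to 4. Its log2 fold change was -1.18 (SE 0.12, limma adjusted p = 4.18e-05; -1.07 without both replicates 3), and ABA + Glc replicate 3 again held the least. AT4G25580, a CAP160 protein of the same family as *LTI65*, held 119, 111, 112 and 98.5 TPM in ABA replicates 1 to 4 and 46.6, 50.7, 50.6 and 43.9 TPM in ABA + Glc replicates 1 to 4, with a log2 fold change of -1.19 (SE 0.19, limma adjusted p = 0.0011; -1.21 without both replicates 3).

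Several of the other large falls were of genes without a symbol. AT3G05260, an NAD(P)-binding Rossmann-fold protein, fell from 35.6 ± 4.19 TPM to 14.2 ± 2.38 TPM (SD, n = 4 each; log2 fold change -1.30, SE 0.22, limma adjusted p = 0.00204). AT3G16120, a dynein light chain type 1 protein, fell from 12.8 ± 0.791 TPM to 5.08 ± 1.32 TPM (log2 fold change -1.28, SE 0.14, limma adjusted p = 6.26e-05). The same direction was seen for AT5G45310, a coiled-coil protein (-1.24, SE 0.18, limma adjusted p = 0.000739), the uncharacterized AT5G05220 (-1.18, SE 0.19, limma adjusted p = 0.0011), AT3G07255, annotated as a nuclear transport factor 2 and RNA recognition motif protein (-1.17, SE 0.17, limma adjusted p = 0.000661), and the cytochrome P450 gene *CYP81D11* (-1.08, SE 0.16, limma adjusted p = 0.000795). *GASA1*, also 1 of the 12, is described with the gibberellin genes. The uncharacterized AT1G14642 had the largest log2 fold change of the 12, -1.61 (SE 0.43, limma adjusted p = 0.0479), but its values were uneven, 28.9, 10.2, 10.6 and 12 TPM in ABA replicates 1 to 4 and 2.91, 8.10, 3.52 and 3.79 TPM in ABA + Glc replicates 1 to 4. It did not pass without ABA replicates 1, 2, 3 or 4, ABA + Glc replicates 1, 3 or 4, Glc replicate 1 or control replicates 2, 3 or 4 (limma adjusted p = 0.0589 to 0.151), nor without both replicates 3 (-1.66, limma adjusted p = 0.107). The largest fall of all was at a lower level: AT4G08876, annotated as a pyrophosphate-dependent phosphofructokinase-like protein and singled out after its values were seen, held 3.64, 7.41, 4.36 and 4.38 TPM in ABA replicates 1 to 4 and 1.64, 0, 0 and 0 TPM in ABA + Glc replicates 1 to 4.

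**Figure D2:**
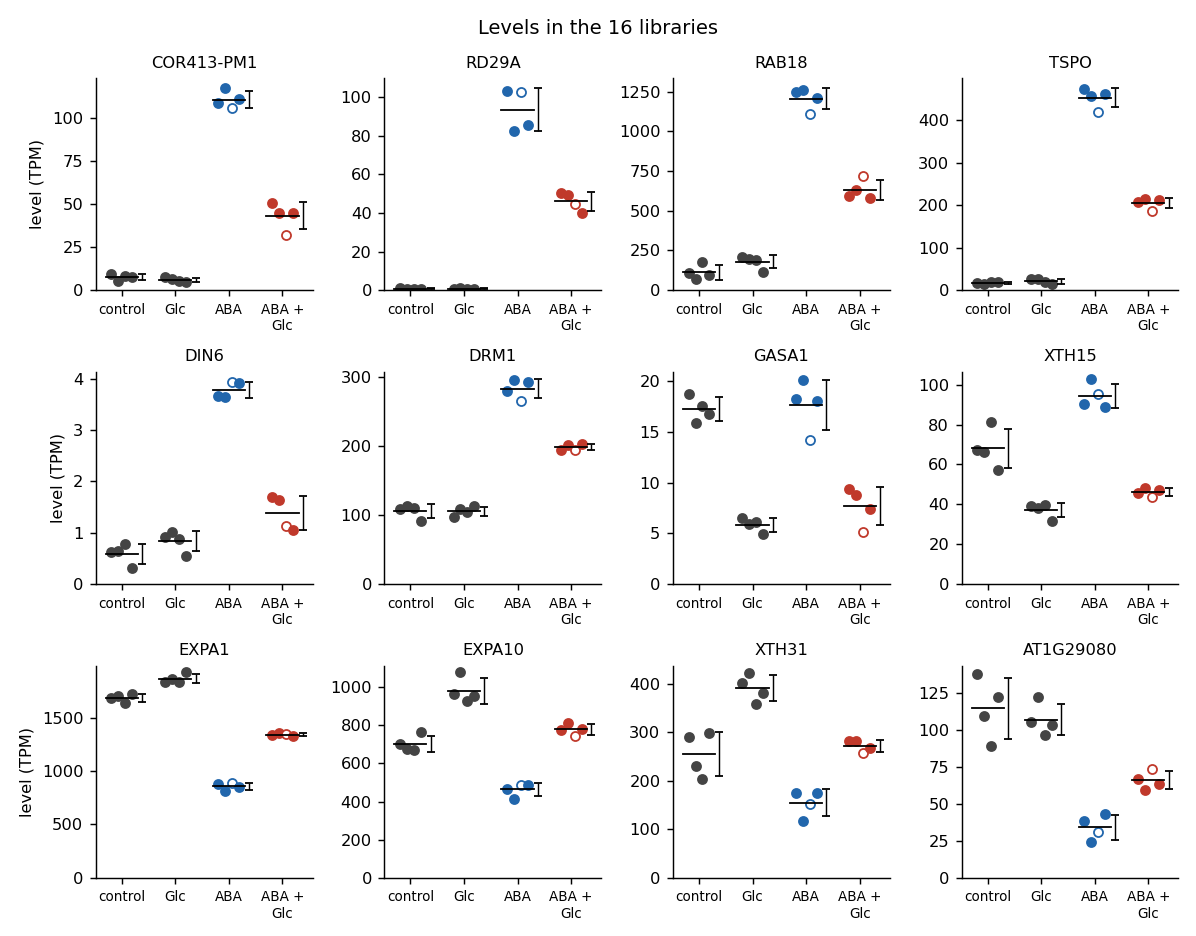
Levels (TPM, vertical axes from 0) of 12 genes in the 16 libraries, by treatment, with the mean as a line and the SD (n = 4) as a bar. Open circles are replicate 3 of ABA and ABA + Glc. In each panel the 4 ABA + Glc libraries lie apart from the 4 ABA libraries, lower in the first 8 genes and higher in *EXPA1*, *EXPA10*, *XTH31* and AT1G29080. For those of the 12 genes named as largest rises or falls, the lack of overlap was a condition of being named.

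Promoters of the falling genes often held the ACGTG core, so the stretches that carry it are shown for the largest falls. The 250 bases before each annotated start were read from the RefSeq TAIR10.1 genome, for 17339 of the 17500 genes tested and all 540 changed genes, and searched on both strands. ACGTG, which includes the CACGTG palindrome (G-box), was present in 49.5% of the promoters of falling genes, in 28.9% of those of rising genes and in 23.4% of all tested. ACGTGNC was in 32.9%, 9.64% and 10%, and CACGTG in 28.1%, 10.8% and 7.8%, in the same order. TTATCC, the sugar-repressive element of plant promoters, was in 23.5%, 12.7% and 13.3%. A match is a description of the sequence and no evidence of binding. Of the 12 largest falls, 7 held ACGTG in this window, and of the 12 largest rises 5 did. The match nearest to the start is shown with its neighbours, 30 bases from 5′ to 3′ on the strand of the gene, every ACGTG or CACGT in the window in capitals.
AT3G05260, chr3:1499115-1499144, minus strand: gctgattttcccCACGTGgactcctccctg
AT3G16120, chr3:5464625-5464654, plus strand: acgACGTGgacaCACGTcagacacatcatt
AT4G25580, chr4:13056121-13056150, plus strand: tACGTGgcatgaCACGTGgtatttcgtaag
*PV42A*, chr1:5274230-5274259, plus strand: agtatcgattgcCACGTGcttctagatcat
AT5G05220, chr5:1550182-1550211, plus strand: gtatgatgaatgACGTGtgccaatggatca
AT3G07255, chr3:2308642-2308671, minus strand: atgCACGTGttaCACGTGgcgtctcggtac
*CYP81D11*, chr3:10790741-10790770, minus strand: tcacataatgttCACGTGtcacatggatat
The stretches of the 5 rising genes that carry the same core are given for comparison.
*ADPG2*, chr2:17464279-17464308, minus strand: aaagtagtgtttACGTGacaatctcaattt
*GDU3*, chr5:23367100-23367129, minus strand: aagttatgcactCACGTcacgactccatat
*anac048*, chr3:1172570-1172599, plus strand: taataaACGTGcCACGTattaaaaccatcc
AT4G26790, chr4:13487323-13487352, plus strand: aaaagccccaaaACGTGcgacacagttcac
*MAPKKK20*, chr3:18649612-18649641, minus strand: atccgctttcatCACGTGcattaattaccc
The capitals of AT3G07255, which fell, hold 2 palindromes, and *MAPKKK20*, which rose, also holds a palindrome. Those of AT3G16120, which fell, and of *anac048*, which rose, hold an ACGTG on each strand. A single core outside a palindrome is shown for *ADPG2*, *GDU3* and AT4G26790, which rose, and for AT5G05220, which fell. The form of the core in these stretches thus does not separate falls from rises. *COR413-PM1*, *TSPO*, *GASA1*, AT1G14642 and AT5G45310 fell without these letters in the window.

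Many LEA and desiccation genes fell. LEA proteins protect membranes and proteins as a seed dries, and of 21 tested 11 fell and 0 rose, with a median of -0.59 against 0.00 over all genes (11 fell without both replicates 3, median -0.64). All 11 had no overlap between the ABA and ABA + Glc libraries, as had 359 of all 374 genes that fell. *RD29A* (AT5G52310) lies on chromosome 5 from 21240717 to 21243644 (plus strand) next to *LTI65* (AT5G52300), on chromosome 5 from 21237021 to 21239531 (plus strand). *RD29A* held 103, 82.2, 102 and 85.6 TPM in ABA replicates 1 to 4 and 50.4, 49.2, 44.4 and 40.0 TPM in ABA + Glc replicates 1 to 4. *LTI65* held 398, 342, 381 and 346 TPM in ABA replicates 1 to 4 and 193, 199.8, 177 and 175 TPM in ABA + Glc replicates 1 to 4. In both genes the groups did not overlap, and the ABA + Glc level was still far above the control, at 73.9 and 22 times the control mean against 150 and 43.3 times under ABA. The log2 fold changes were -1.01 (SE 0.16, limma adjusted p = 0.00106; -0.95 without both replicates 3) for *RD29A* and -0.98 (SE 0.12, limma adjusted p = 0.000178; -0.93) for *LTI65*. *RAB18* (AT5G66400), a dehydrin gene used as a marker of ABA response, held 1246, 1259, 1111 and 1208 TPM in ABA replicates 1 to 4 and 594, 629.97, 721 and 578 TPM in ABA + Glc replicates 1 to 4. Replicate 3 was the lowest ABA library and the highest ABA + Glc library, and the groups still did not overlap. *RAB18* had a log2 fold change of -0.94 (SE 0.21, limma adjusted p = 0.017; -1.04 without both replicates 3, limma adjusted p = 0.0317), and did not pass without ABA replicate 1 (limma adjusted p = 0.0511).

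Besides these and *COR413-PM1*, the LEA and desiccation genes that fell were *LEA4-5* (-0.81), *KIN2* (-0.80), *XERO1* (-0.78), *LEA29* (-0.72), *LEA14* (-0.62), *LEA18* (-0.59) and *ECP63* (-0.51), log2 fold changes chosen after the values were seen. The embryo LEA genes *EM1* (-0.55) and *EM6* (-0.54) and the dehydrin gene *XERO2* (-0.75) did not pass. Nor did the dehydrin genes *COR47* (0.16) and *ERD10* (0.10), or *M17* (0.37), which had the highest estimate of the list. Seed storage and oil body genes mostly did not pass. Of 16 tested 0 fell, 1 rose and the median was 0.22 (0.11 without both replicates 3). The estimates ran from -0.95 to 0.77, and at an unadjusted p under 0.05 in limma, 4 were higher and 4 lower. The gene that rose, *SESA4* (AT4G27170), 1 of a family of near-identical 2S albumins among which reads could be divided, held 16.6, 19.4, 10.6 and 16.1 TPM in ABA replicates 1 to 4 and 24.9, 27.5, 32 and 17.6 TPM in ABA + Glc replicates 1 to 4. ABA + Glc replicate 4 lay within the ABA range. The log2 fold change of *SESA4* was 0.69 (SE 0.18, limma adjusted p = 0.0456). It did not pass without ABA replicates 1, 3 or 4, ABA + Glc replicates 1, 2 or 3, Glc replicates 1 or 2 or control replicates 1, 2, 3 or 4 (limma adjusted p = 0.053 to 0.132) nor without both replicates 3 (0.40, limma adjusted p = 0.242).

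Some genes of the ABA signalling core also fell. Of 8 clade A protein phosphatases 2C, which switch ABA signalling off and are raised by ABA, 4 fell and 0 rose (median -0.39; 5 fell without both replicates 3). *HAI3* (AT2G29380) held 67.1, 57.2, 69.6 and 63.8 TPM in ABA replicates 1 to 4 and 42.6, 44.7, 33.7 and 41.5 TPM in ABA + Glc replicates 1 to 4, and every ABA + Glc library lay below the ABA libraries. *HAI3* had a log2 fold change of -0.66 (SE 0.11, limma adjusted p = 0.0012; -0.54 without both replicates 3), *PP2CA* had -0.44 (SE 0.07, limma adjusted p = 0.000931) and *HAI2* had -0.43 (SE 0.07, limma adjusted p = 0.00173). The other gene that fell, *HAB1*, had -0.42. Among the ABA receptors *PYL4* (0.40, SE 0.08, limma adjusted p = 0.00704) and *PYL6* (0.42, SE 0.09, limma adjusted p = 0.0107) rose and *PYL13* (-0.61, SE 0.15, limma adjusted p = 0.0255) fell, of 12 tested. These 3 calls were lost without both replicates 3, where *PYL4* fell short of the minimum change only (limma adjusted p = 0.0135) and *PYL6* and *PYL13* had limma adjusted p = 0.0531 and 0.0641. The call of *PYL13* was also lost without ABA replicates 1 or 4 or ABA + Glc replicates 2 or 4 (limma adjusted p = 0.0506 to 0.0871).

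Of 12 transcription factors of ABA response and the G-box, 4 fell and 1 rose (median -0.15; 5 fell and 0 rose without both replicates 3). *ABF4* (AT3G19290), a bZIP factor that binds ABA-responsive elements, held 14.6, 15.3, 14.7 and 14 TPM in ABA replicates 1 to 4 and 10.2, 10.6, 11.1 and 9.90 TPM in ABA + Glc replicates 1 to 4. The groups of 4 libraries were tight and apart, and *ABF4* had a log2 fold change of -0.47 (SE 0.08, limma adjusted p = 0.00202; -0.50 without both replicates 3). *ABI5* (AT2G36270), the bZIP factor that arrests germination, held 172, 156, 167 and 158 TPM in ABA replicates 1 to 4 and 117, 123, 154 and 112 TPM in ABA + Glc replicates 1 to 4. ABA + Glc replicate 3 lay close to the ABA libraries and the other 3 lay well below. The log2 fold change of *ABI5* was -0.38 (SE 0.10, limma adjusted p = 0.0332) and -0.47 without both replicates 3 (limma adjusted p = 0.00688), and it did not pass without ABA replicates 1, 2, 3 or 4 or ABA + Glc replicates 1, 2 or 4 (limma adjusted p = 0.0548 to 0.0991). *GBF3*, a G-box binding factor, held 42.7, 37.9, 39.9 and 36.1 TPM in ABA replicates 1 to 4 and 24.9, 30.1, 37.8 and 25.9 TPM in ABA + Glc replicates 1 to 4. Its ABA + Glc replicate 3 lay within the ABA range, so the groups overlapped. Its log2 fold change was -0.41 (SE 0.10, limma adjusted p = 0.0359) and -0.52 without both replicates 3 (limma adjusted p = 0.00399). *GBF3* did not pass without ABA replicates 1, 2 or 3 or ABA + Glc replicates 1, 2 or 4 (limma adjusted p = 0.061 to 0.114).

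The G-box binding factor *GBF1* fell by less (-0.30, SE 0.05, limma adjusted p = 0.00197) and missed the minimum change without ABA replicate 2 or ABA + Glc replicate 1, at limma adjusted p = 0.00874 to 0.00998. *GBF2* had -0.27 (SE 0.09, limma adjusted p = 0.126) and did not pass, but passed without both replicates 3 (-0.42, limma adjusted p = 0.00218) and without ABA + Glc replicate 3 alone (-0.39, limma adjusted p = 0.00186). *EEL*, another bZIP factor of the seed, had -0.01 (SE 0.10, limma adjusted p = 0.966). Of these, *ABI4*, an AP2 factor of sugar and ABA response, alone passed in the other direction (0.39, SE 0.08, limma adjusted p = 0.0104), with 126, 125, 123 and 115 TPM in ABA replicates 1 to 4 and 152, 156, 200.4 and 138 TPM in ABA + Glc replicates 1 to 4. It missed the minimum change without ABA + Glc replicate 3, the highest value, and without both replicates 3 (0.28 in each). The number that fell in this list was 1 without ABA replicate 2 or ABA + Glc replicate 1, and 2 without ABA replicate 1 or 3 or ABA + Glc replicate 2 or 4. The study names *ABF4*, *ABI5*, *EEL*, *RAB18* and the *GBF* genes from these libraries, so their place in the list is no independent support.

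Genes of both ABA synthesis and ABA breakdown fell, 5 of 10 tested, with 0 rises and a median of -0.34. ABA 8′-hydroxylases of the CYP707A family break ABA down. *CYP707A1* (AT4G19230), on chromosome 4 from 10521259 to 10523961 (plus strand), held 40.3, 36.1, 35.9 and 35.4 TPM in ABA replicates 1 to 4 and 16.4, 20.1, 16.9 and 20.2 TPM in ABA + Glc replicates 1 to 4. Its ABA + Glc libraries all lay far below the ABA libraries. *CYP707A1* had a log2 fold change of -0.99 (SE 0.11, limma adjusted p = 5.80e-05; -0.96 without both replicates 3). *CYP707A2*, the hydroxylase of germinating seeds, had -0.53 (SE 0.11, limma adjusted p = 0.0114) and did not pass without ABA replicate 1 (limma adjusted p = 0.0511). On the side of synthesis *NCED9*, a dioxygenase of seeds, had -0.61 (SE 0.15, limma adjusted p = 0.0306). It did not pass without ABA replicates 1, 3 or 4 or ABA + Glc replicates 1 or 4 (limma adjusted p = 0.0528 to 0.108) nor without both replicates 3 (-0.66, limma adjusted p = 0.0539). *ABA1* (-0.37), which encodes zeaxanthin epoxidase, and *CYP707A3* (-0.50) also fell, the latter with overlapping groups and not without both replicates 3 (limma adjusted p = 0.0544). Of the list, 3 fell without both replicates 3, 2 without ABA replicate 1, and 3 without ABA replicate 3 or ABA + Glc replicate 1 or 4. The dormancy gene *SOM*, a zinc finger repressor of germination, held 444, 431, 426 and 422 TPM in ABA replicates 1 to 4 and 340.3, 358, 293 and 333 TPM in ABA + Glc replicates 1 to 4, with a log2 fold change of -0.38 (SE 0.06, limma adjusted p = 0.00106), and was the 1 of 7 dormancy genes that changed.

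Marker genes of SnRK1 and of darkness fell in part. Of 13 tested 4 fell and 0 rose (4 without both replicates 3), with a median of -0.25. At an unadjusted p under 0.05 in limma, 2 were higher and 6 lower, and the highest estimate was 0.41. *DIN6* (AT3G47340), which encodes asparagine synthetase and is a standard marker of sugar starvation, held 3.67, 3.65, 3.94 and 3.92 TPM in ABA replicates 1 to 4 and 1.69, 1.64, 1.13 and 1.05 TPM in ABA + Glc replicates 1 to 4. Its level was low in all of them, and the groups were far apart. *DIN6* had a log2 fold change of -1.21 (SE 0.17, limma adjusted p = 0.000383; -1.13 without both replicates 3). *DRM1* (AT1G28330), a dormancy-associated gene, held 279.6, 295, 265 and 292 TPM in ABA replicates 1 to 4 and 194, 202, 195 and 202 TPM in ABA + Glc replicates 1 to 4, again with no overlap. *DRM1* had a log2 fold change of -0.51 (SE 0.06, limma adjusted p = 0.000143; -0.53), and its control and Glc means were 106 ± 9.83 TPM and 106 ± 6.43 TPM (SD, n = 4 each). *DIN1*, a senescence-associated rhodanese protein, had -0.73 (SE 0.12, limma adjusted p = 0.00165), and *BT2*, a BTB and TAZ domain protein, had -0.61 (SE 0.10, limma adjusted p = 0.0011). *DRM2*, a relative of *DRM1*, had -0.65 (SE 0.19, limma adjusted p = 0.0721) and did not pass, although it passed without control replicate 1 or control replicate 3 (limma adjusted p = 0.0215 and 0.014) and in a fit on the ABA and ABA + Glc libraries alone (limma adjusted p = 0.0161).

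Of 10 genes of the SnRK1 complex and its activating kinases 2 fell and 0 rose, with a median of -0.03. The catalytic subunit gene *KIN10* held 39.9, 40.6, 39.4 and 35.6 TPM in ABA replicates 1 to 4 and 38, 39, 41.8 and 35.9 TPM in ABA + Glc replicates 1 to 4, with a log2 fold change of -0.01 (SE 0.06, limma adjusted p = 0.963). AT1G69800, a cystathionine beta-synthase domain protein of the gamma subunit type, held 49.6, 49.1, 49.6 and 46.5 TPM in ABA replicates 1 to 4 and 38.3, 38.1, 25.3 and 35.4 TPM in ABA + Glc replicates 1 to 4, a log2 fold change of -0.52 (SE 0.10, limma adjusted p = 0.00743; -0.37 without both replicates 3). The gamma subunit gene *KING1* had -0.35 (SE 0.09, limma adjusted p = 0.0347; -0.30) and did not pass without ABA replicates 1, 2 or 4 or ABA + Glc replicates 2 or 3 (limma adjusted p = 0.052 to 0.109). The study names *DIN6*, *DRM1*, *DRM2*, *KIN10*, *KING1* and *KING2* from these libraries, and AT1G69800 is taken here as *KING2*. Of 7 class II trehalose phosphate synthases, whose transcripts follow sugar status, *TPS11* (-0.72, SE 0.09, limma adjusted p = 0.000115) and *TPS6* (-0.61, SE 0.10, limma adjusted p = 0.00137) fell. *TPS11* held 29.5, 28.3, 30.2 and 26.7 TPM in ABA replicates 1 to 4 and 19.4, 17.9, 14.1 and 18 TPM in ABA + Glc replicates 1 to 4, with ABA + Glc replicate 3 lowest. With all libraries, 0 of 9 bZIP factors of the C and S1 groups, partners of SnRK1 in starvation, passed in limma, while at an unadjusted p below 0.05, 3 were higher and 2 lower. Leaving out 1 library changed this in 4 cases, with 1 fall without ABA replicate 2 or ABA + Glc replicate 4, 1 rise without ABA replicate 3, and 1 of each without ABA + Glc replicate 1.

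Nutrient genes outside these lists mostly did not pass. Over all genes tested 2.14% fell and 0.949% rose, so a single call in a list of this size is not read as a result about the list. In branched-chain amino acid breakdown 1 of 8 fell, *MCCA* (-0.35, SE 0.08, limma adjusted p = 0.0255), which did not pass without ABA replicates 1, 2 or 3 or ABA + Glc replicates 2, 3 or 4 (limma adjusted p = 0.054 to 0.0799) nor without both replicates 3 (limma adjusted p = 0.111). In nitrogen assimilation and proline metabolism 1 of 19 fell, the plastid glutamine synthetase gene *GLN2* (-0.33, SE 0.08, limma adjusted p = 0.034). It did not pass without ABA replicates 1, 2 or 4 or ABA + Glc replicates 3 or 4 (limma adjusted p = 0.0613 to 0.109) nor without both replicates 3 (limma adjusted p = 0.0579). The autophagy gene *ATG8E* was the 1 of 9 *ATG8* genes that fell (-0.40, SE 0.08, limma adjusted p = 0.00866). Of 19 genes of lipid breakdown and gluconeogenesis *PMDH2*, a peroxisomal malate dehydrogenase, fell (-0.31, SE 0.07, limma adjusted p = 0.0131), and missed the minimum change without ABA + Glc replicate 3 (-0.26). Of 7 flavonoid genes tested, *CHI* (-0.61, SE 0.12, limma adjusted p = 0.0088), *FLS1* (-0.47, SE 0.10, limma adjusted p = 0.0118) and *CHS* (-0.43, SE 0.10, limma adjusted p = 0.0225) fell, which make the flavonol skeleton. *CHI* missed without both replicates 3 (limma adjusted p = 0.0544), and *CHS* did not pass without ABA replicates 2 or 4 (limma adjusted p = 0.0584 to 0.0694).

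Among 16 sugar transporters 1 fell and 0 rose (median -0.16; -0.07 without both replicates 3), beside 2.14% and 0.949% of all genes tested. *STP13* (AT5G26340), a hexose symporter, held 14, 13, 15.5 and 13 TPM in ABA replicates 1 to 4 and 8.16, 8.09, 6.02 and 9.26 TPM in ABA + Glc replicates 1 to 4. All ABA + Glc libraries were lower, and *STP13* had a log2 fold change of -0.79 (SE 0.11, limma adjusted p = 0.000599; -0.62 without both replicates 3). Leaving out ABA + Glc replicate 1 gave 3 falls in this list. The hexose symporters *STP1* (-0.17, SE 0.11, limma adjusted p = 0.444) and *STP4* (-0.04, SE 0.08, limma adjusted p = 0.856) did not pass. In starch metabolism *GPT2* (AT1G61800), the plastid glucose 6-phosphate translocator, rose from 6.07 ± 0.385 TPM to 8.28 ± 0.572 TPM (SD, n = 4 each; 0.42, SE 0.08, limma adjusted p = 0.00385), and the beta-amylase gene *BAM1* fell (-0.49, SE 0.09, limma adjusted p = 0.00247), 2 of 21 tested. Of 12 hexokinases, sucrose synthases and invertases limma called 0, while at an unadjusted p below 0.05, 0 were higher and 3 lower. In this list 1 fell without ABA + Glc replicate 1, ABA + Glc replicate 2 or control replicate 3.

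Among wall-loosening genes, some alpha-expansins rose and some XTH genes fell. Alpha-expansins loosen the contacts between wall polymers, and of 12 tested 6 rose and 0 fell, a median of 0.29 (the same counts without both replicates 3). Xyloglucan endotransglucosylases (XTH) cut and rejoin xyloglucan, and of 20 tested 7 fell and 1 rose, a median of -0.28 (6 and 1 without both replicates 3). The expansin-like A genes *EXLA1* (-0.87, SE 0.14, limma adjusted p = 0.0016) and *EXLA2* (-1.25, SE 0.26, limma adjusted p = 0.0109), the 2 tested, fell, and *EXLA2* did not pass without both replicates 3 (limma adjusted p = 0.0628). This split by family was made after the values were seen, and in the list of 23 expansins and XTH genes, 7 rose and 5 fell. *EXPA1* (AT1G69530), on chromosome 1 from 26141726 to 26143538 (plus strand), held 881, 815, 888 and 850.1 TPM in ABA replicates 1 to 4 and 1340.3, 1359, 1345 and 1328 TPM in ABA + Glc replicates 1 to 4. The spread within each group was narrow and the groups were far apart, and *EXPA1* had a log2 fold change of 0.65 (SE 0.04, limma adjusted p = 3.35e-07; 0.66 without both replicates 3). *EXPA10* (AT1G26770), on chromosome 1 from 9259432 to 9261313 (plus strand), held 464, 414, 489 and 486 TPM in ABA replicates 1 to 4 and 778, 815, 742 and 783 TPM in ABA + Glc replicates 1 to 4, and had a log2 fold change of 0.75 (SE 0.06, limma adjusted p = 4.39e-06; 0.80). *EXPA8* (0.60), *EXPA9* (0.56), *EXPA15* (0.45) and *EXPA3* (0.30) rose as well.

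*XTH15* (AT4G14130), on chromosome 4 from 8137020 to 8138392 (minus strand), held 90.5, 103, 95.2 and 89 TPM in ABA replicates 1 to 4 and 45.5, 48.3, 43.6 and 47.4 TPM in ABA + Glc replicates 1 to 4. The ABA + Glc libraries lay close together and far below the ABA libraries, a log2 fold change of -1.02 (SE 0.09, limma adjusted p = 6.49e-06; -0.99 without both replicates 3). *XTH18* (-0.87, SE 0.11, limma adjusted p = 0.000116) and *XTH24* (-0.86, SE 0.14, limma adjusted p = 0.00143) also fell. *XTH9* (-0.48, SE 0.11, limma adjusted p = 0.0189) and *XTH22* (-0.41, SE 0.09, limma adjusted p = 0.0182) fell, and did not pass without both replicates 3 (limma adjusted p = 0.0579 and 0.104). They also did not pass without ABA replicate 2 (limma adjusted p = 0.064) for *XTH9* and without ABA replicates 1 or 3 (limma adjusted p = 0.0592 to 0.0667) for *XTH22*. *XTH17* and *XTH18* are close copies between which reads could be divided. The XTH gene that rose was *XTH31* (AT3G44990), which held 175, 117, 153 and 175 TPM in ABA replicates 1 to 4 and 282, 282, 258 and 267 TPM in ABA + Glc replicates 1 to 4, a log2 fold change of 0.83 (SE 0.12, limma adjusted p = 0.000731; 0.85).

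Gibberellin genes changed in both directions. Gibberellin counters ABA in germination, and of 17 tested 3 rose and 1 fell (4 and 1 without both replicates 3; median -0.11 over the list). *GASA1* (AT1G75750), which encodes a small cysteine-rich peptide, held 18.3, 20.1, 14.2 and 18.1 TPM in ABA replicates 1 to 4 and 9.36, 8.75, 5.11 and 7.43 TPM in ABA + Glc replicates 1 to 4, a log2 fold change of -1.18 (SE 0.15, limma adjusted p = 0.000143; -1.10). *GASA6*, a related peptide gene, went the other way with 403, 387, 348 and 424 TPM in ABA replicates 1 to 4 and 530.1, 542, 453 and 560.03 TPM in ABA + Glc replicates 1 to 4, a log2 fold change of 0.42 (SE 0.07, limma adjusted p = 0.00219; 0.43). *GA3OX1*, whose enzyme makes active gibberellin, had 0.38 (SE 0.09, limma adjusted p = 0.0225) with overlapping groups, and did not pass without ABA replicates 1, 2 or 4 or ABA + Glc replicates 2 or 3 (limma adjusted p = 0.0567 to 0.0754). The synthesis gene *GA20OX1* rose by 0.35 on the log2 scale, and the number of rises in the list was 1 without ABA replicate 2, ABA replicate 4 or ABA + Glc replicate 2.

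The largest rises outside these lists included a protease, a wall enzyme and several regulators. By the same rule as the falls, the 12 largest rises included *XTH31*, *EXPA10* and *EXPA1*. AT1G29080, a papain family cysteine protease, held 38.4, 23.9, 31.2 and 43.2 TPM in ABA replicates 1 to 4 and 66.7, 59.4, 73.8 and 63.6 TPM in ABA + Glc replicates 1 to 4 and had the largest log2 fold change of them, 0.97 (SE 0.15, limma adjusted p = 0.0011; 0.88 without both replicates 3). The AT1G29080 values of ABA + Glc all lay above those of ABA and below the control mean of 115 ± 20.6 TPM (SD, n = 4). *ADPG2*, a polygalacturonase that acts on pectin where cells separate, held 11.4, 11.6, 14.6 and 11.9 TPM in ABA replicates 1 to 4 and 21.9, 20.4, 23.4 and 21.1 TPM in ABA + Glc replicates 1 to 4, a log2 fold change of 0.79 (SE 0.09, limma adjusted p = 5.80e-05). AT1G80440, a kelch repeat protein, rose from 6.19 ± 0.669 TPM to 11.3 ± 1.37 TPM (SD, n = 4 each; 0.81, SE 0.11, limma adjusted p = 0.000248).

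The kinase gene *MAPKKK20* had little spread, with 10.2, 9.49, 9.52 and 11 TPM in ABA replicates 1 to 4 and 17.2, 15.1, 16.4 and 16.6 TPM in ABA + Glc replicates 1 to 4, and a log2 fold change of 0.67 (SE 0.06, limma adjusted p = 1.93e-05). The NAC factor gene *anac048* (0.73, SE 0.11, limma adjusted p = 0.000754) and the lipase gene AT4G26790 (0.71, SE 0.11, limma adjusted p = 0.0013) rose with no library that decided the call. *GDU3*, a regulator of amino acid export, rose (0.79, SE 0.12, limma adjusted p = 0.00112; 0.61 without both replicates 3), as did the F-box gene AT2G39415 (0.64, SE 0.14, limma adjusted p = 0.0125; 0.45). In both, ABA + Glc replicate 3 held the highest value, 42.4 and 77.4 TPM, above 26.0 to 29.2 and 39.5 to 53.4 TPM in the others. *ETC1*, a MYB-related regulator of epidermal cell fate, held 11.4, 12.3, 9.49 and 16.6 TPM in ABA replicates 1 to 4 and 17.3, 17.5, 26.6 and 17.3 TPM in ABA + Glc replicates 1 to 4. The log2 fold change of *ETC1* was 0.65 (SE 0.17, limma adjusted p = 0.0386). Without both replicates 3 *ETC1* had 0.38 and did not pass (limma adjusted p = 0.216), nor did it pass without ABA replicates 1, 2 or 3, ABA + Glc replicates 2 or 3, Glc replicate 1 or control replicate 4 (limma adjusted p = 0.0507 to 0.12).

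**Figure D3:**
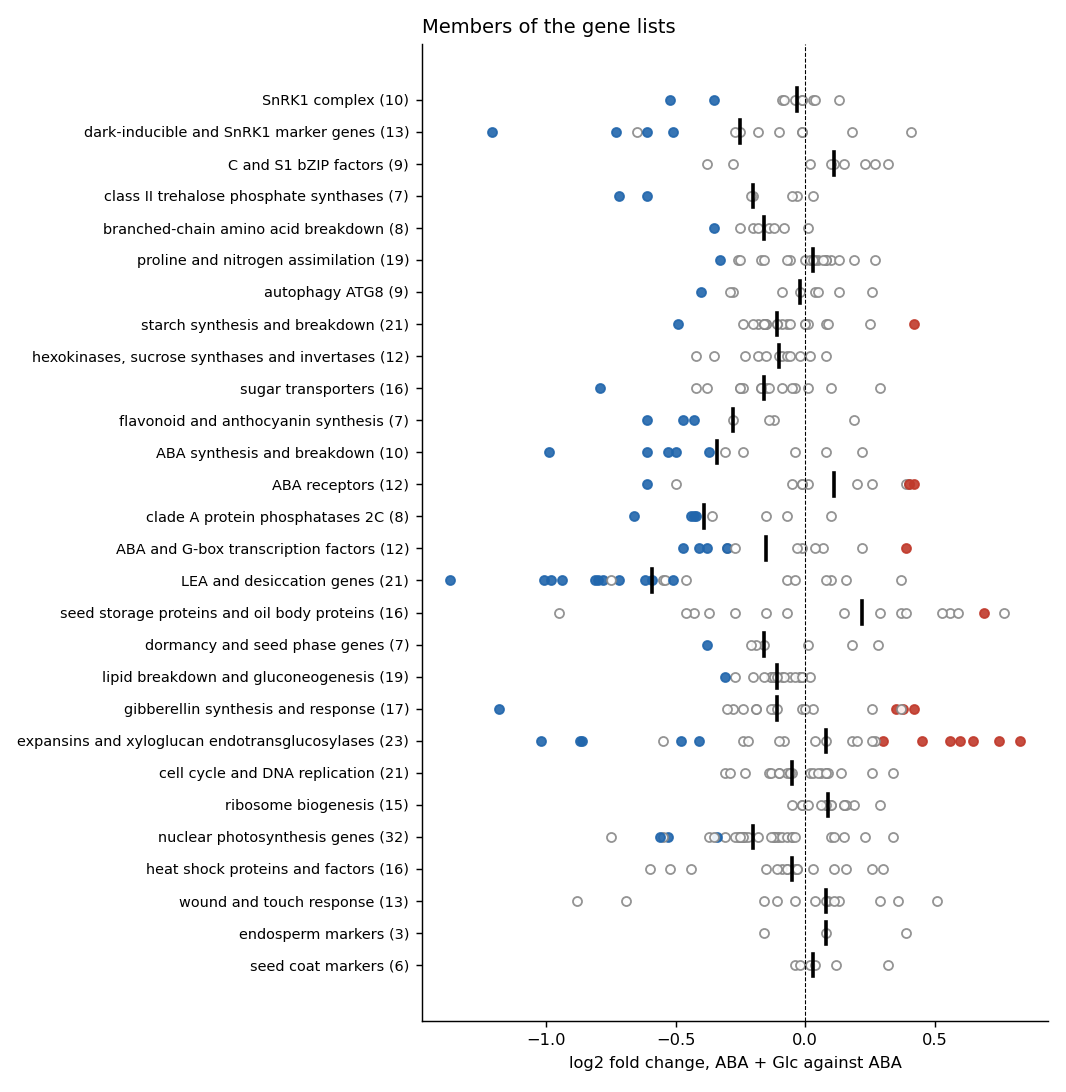
Log2 fold changes from ABA to ABA + Glc (horizontal axis) of the members of 28 gene lists, with the number tested in brackets. Filled points passed the test (red rose, blue fell), open points did not, black bars are list medians and the dashed line is the median of all genes. LEA and desiccation genes have the lowest median of the 28 lists, -0.59.

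Of 21 cell cycle and DNA replication genes and 15 ribosome biogenesis genes limma called 0 in each, while at an unadjusted p below 0.05 they had 1 and 7 higher and 1 and 0 lower genes. The ribosome biogenesis list had 1 rise without ABA + Glc replicate 4. Of 32 nuclear photosynthesis genes 3 fell and 0 rose (median -0.20, and -0.15 without both replicates 3), and 1 fell without ABA replicate 1 or ABA replicate 2. At an unadjusted p below 0.05, 1 of the 32 was higher and 12 were lower. The light-harvesting gene *LHCB4.1* held 61.3, 55.6, 52.4 and 55.8 TPM in ABA replicates 1 to 4 and 44, 44.3, 43.1 and 45.8 TPM in ABA + Glc replicates 1 to 4, a log2 fold change of -0.34 (SE 0.05, limma adjusted p = 0.00106). *PSBO2*, of the oxygen-evolving complex, had -0.56 (SE 0.13, limma adjusted p = 0.0179) and did not pass without ABA replicates 1 or 2 (limma adjusted p = 0.0666 to 0.0683), and *LHCB4.2* had -0.53 (SE 0.14, limma adjusted p = 0.0412) and did not pass without ABA replicates 1, 2, 3 or 4, ABA + Glc replicates 1 or 3, Glc replicates 1, 2, 3 or 4 or control replicates 2 or 4 (limma adjusted p = 0.0501 to 0.114). *LHCB4.2* also missed without both replicates 3 (limma adjusted p = 0.074). Wound and touch genes had 0 calls of 13 in limma, while at an unadjusted p below 0.05, 3 were higher and 2 lower. Without ABA + Glc replicate 2 or control replicate 3, 1 wound or touch gene fell.

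Heat shock genes were higher in replicate 3 of ABA + Glc than in its other replicates. Of 16 tested limma called 0, while at an unadjusted p below 0.05, 0 were higher and 1 lower, and 1 fell without ABA + Glc replicate 3. The list's median against the ABA mean reached 0.70 in ABA + Glc replicate 3, while its other replicates were at -0.38 to -0.30, and ABA replicates 1 to 4 were at 0.35, 0.08, -0.10 and -0.27. Over the list the median change from ABA to ABA + Glc was -0.05 with all libraries and -0.38 without both replicates 3. ABA + Glc replicate 3 lay over 1 log2 unit above the mean of the other 3 for 151 genes and below it for 99, and for the other 7 libraries the numbers were 46 to 78 above and 52 to 81 below. Of the 71 named genes that passed, 56 also passed without both replicates 3. The 15 that did not are *ETC1*, *MCCA*, AT1G14642, *NCED9*, *PYL4*, *PYL6*, *PYL13*, *ABI4*, *LHCB4.2*, *CHI*, *XTH9*, *XTH22*, *SESA4*, *GLN2* and *PMDH2*.

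**Figure D4:**
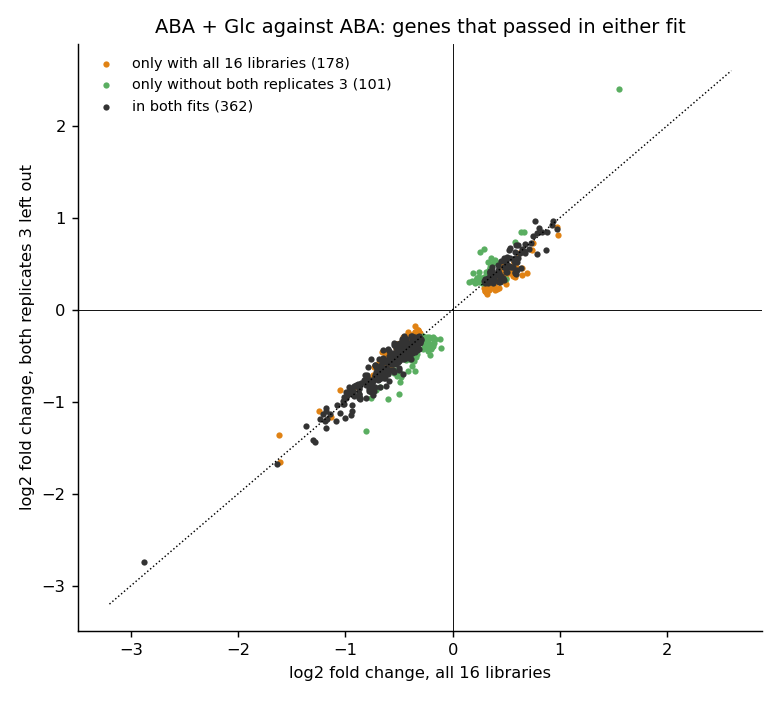
Log2 fold change from ABA to ABA + Glc with all 16 libraries (horizontal axis) and without both replicates 3 (vertical axis) for genes that passed in either fit; the dotted line marks equal values. 362 genes passed in both, 178 only with all libraries and 101 only without both replicates 3, and points lie on both sides of the line.

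The Glc effect was also measured in seeds without ABA. Between the 4 control and the 4 Glc libraries, which share no library with the comparison above, 356 genes fell (2.03%) and 134 rose (0.766%). Without control replicate 1 these were 185 and 87, and without Glc replicate 1 223 fell. The counts grew to 516 and 200 without replicate 3 of ABA and of ABA + Glc, and to 513 and 201 without ABA + Glc replicate 3 alone. Of the 374 genes that fell with ABA, 47 (12.6%) also fell without it, which is 13.2% of the falls without ABA. Another 45 of the 374 rose without ABA. Of the 166 that rose with ABA, 15 (9.04%) rose without it, 11.2% of the rises without ABA, and 5 fell. The median change without ABA was 0.01 over the 374 falls and -0.01 over the 166 rises. These overlaps and medians are from the fit on all 16 libraries. The 2 comparisons share 1 estimate of the spread of each gene, so leaving out ABA + Glc replicate 3 also moved the counts without ABA. The difference between the 2 Glc effects, fitted on all 16 libraries, was lower with ABA for 291 genes (1.66%) and higher for 230 (1.31%). Without both replicates 3 it was lower for 340 and higher for 313. This test holds the ABA and ABA + Glc libraries that chose the changed genes, so its count among them is not read further.

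Genes that fell with and without ABA included wall, sugar and ABA breakdown genes. *GASA1* had a Glc effect of -1.49 without ABA (limma adjusted p = 1.90e-05), from 17.2 ± 1.2 TPM to 5.85 ± 0.681 TPM (SD, n = 4 each), and *XTH15* had -0.86 (limma adjusted p = 3.29e-05). *XTH18* (-0.47), *XTH24* (-0.60), *XTH9* (-0.63), *CYP707A1* (-0.64), *STP13* (-0.63), *DIN1* (-0.67) and *ATG8E* (-0.43) also fell without ABA. The difference between the effects did not pass for any of these genes, at limma adjusted p of 0.174 to 0.939. On the rising side *EXPA10* (0.48), *ADPG2* (0.56) and *XTH31* (0.63) rose without ABA too. *GPT2* rose more without ABA, from 10.8 ± 0.859 TPM to 31.7 ± 2.31 TPM (SD, n = 4 each), a log2 fold change of 1.52 (limma adjusted p = 7.01e-09), and the difference of -1.10 passed (limma adjusted p = 4.10e-05).

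For part of the LEA and desiccation genes the effect of Glc differed with ABA. Without ABA, 5 of the 21 rose and 0 fell, with a median of 0.27, beside 0.766% and 2.03% of all genes tested. For 12 the difference passed, lower with ABA in each, beside 1.66% of all genes tested. This test holds the ABA and ABA + Glc libraries in which 11 of the list fell, so the count of 12 is not read further. *RAB18* had a mean of 113 ± 47.3 TPM in the control and 178 ± 41.6 TPM with Glc (SD, n = 4 each), a log2 fold change of 0.71 (limma adjusted p = 0.0773) that did not pass, and the difference of -1.65 did (limma adjusted p = 0.00423). *LEA29* (0.70), *LEA4-5* (0.72) and *ECP63* (0.72) rose with Glc alone and fell with Glc on top of ABA. Of the named genes, *SOM* (0.31) and *BT2* (0.47) did the same. *DRM1* had a Glc effect of 0.00 without ABA, and the difference of -0.51 passed (limma adjusted p = 0.00325). *EXPA1* had 0.15 without ABA and a difference of 0.50 (limma adjusted p = 0.00016). *STP4* fell without ABA, did not pass with it, and differed between them (-0.56 without ABA, -0.04 with it, difference 0.52, limma adjusted p = 0.0157).

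**Figure D5:**
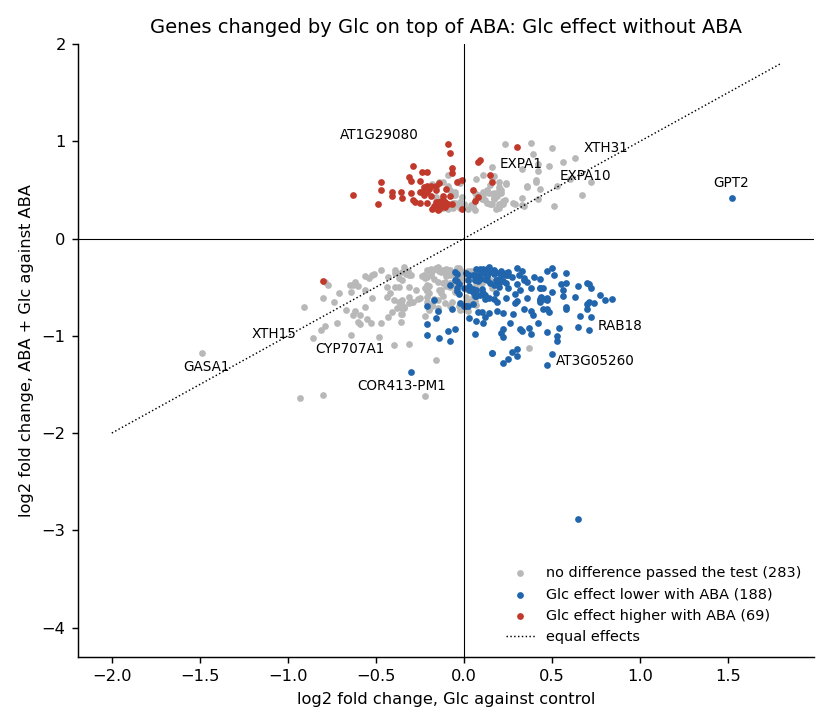
Glc effect on top of ABA (vertical axis) against the Glc effect without ABA (horizontal axis), both as log2 fold changes, for the 540 genes changed by Glc on top of ABA. Colour marks the test of the difference (blue lower with ABA, red higher, grey not passed); *GASA1* and *XTH15* lie near the line of equal effects and *RAB18* lies far from it.

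Promoters were also counted by the effect without ABA. Of the 47 that fell with and without ABA 34% held ACGTG and 6.38% held CACGTG, and of the 282 that fell with ABA and did not pass without it 50.4% and 29.4% did, beside 23.4% and 7.8% of all genes tested. TTATCC was in 23.4% and 25.2%. These shares were looked at after the lists were known and are given with no test.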

How the data were processed

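RNA was sequenced from whole seeds, 4 libraries per treatment. By the study's methods the authors quantified transcripts with kallisto 0.44.0 and tested them with sleuth (version not stated). Trimming of the reads with Trimmomatic 0.38 is recorded for these data, but the paper's methods do not mention it. The values the authors deposited, 1 per gene and library, are headed TPM and are treated here as a score on a linear scale, since their library sums differ and the step that rescaled them after kallisto is not stated. They are not counts, so depth is unknown and no counting interval is given.

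Values were analysed as log2(TPM + 0.5) with limma 3.58.1 in R 4.3.3 (variance trend, 4 group means), over genes above 0.5 TPM in at least 50% of 16 libraries. Genes needed an adjusted p (Benjamini-Hochberg) below 0.05 and a log2 change of 0.289 or more, which is 0.2 on the natural log scale, the minimum the study used. The design had assumed TPM, and the test was kept. The fit was tested on simulated data. Of 27655 genes, 27445 matched a RefSeq TAIR10.1 locus tag, 88 were plastid and 122 mitochondrial. Named genes are the 12 largest rises and falls whose higher group averaged 10 TPM or more and whose libraries did not overlap, up to 3 changed members per list with any against the majority, and the genes the study discusses. Others are said to be chosen after their values were seen, or stand as examples of a list. Members and lists were chosen with earlier results of these data known. Alternatives left out both replicates 3 or each library, or changed the libraries fitted, block, pseudocount, filter, scaling, fold minimum and variance trend. P-values measure the spread between libraries labelled biological replicates.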

Additional observations from a re-analysis of the deposited data

Results flagged for a closer look

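Of 156 groups of 4 libraries checked over the 78 named genes, 11 held a library whose gap to the nearest other, divided by the range of the group, was above Dixon's critical value. Chance alone gives about 1 in 20 groups. Among ABA + Glc libraries, *ETC1* held 26.63 TPM in replicate 3 beside 17.33 to 17.52 TPM in the others, and *PV42A* held 78.96 TPM in replicate 3 beside 103.76 to 107.16 TPM. AT1G14642 held 8.1 TPM in replicate 2 beside 2.91 to 3.79 TPM, *DRM2* 8.1 TPM in replicate 4 beside 6.24 to 6.5 TPM, and *PYL13* 19.04 TPM in replicate 1 beside 17.51 to 17.64 TPM. Among ABA libraries, AT1G14642 held 28.9 TPM in replicate 1 beside 10.23 to 12.02 TPM, and *CYP707A1* held 40.26 TPM in replicate 1 beside 35.42 to 36.13 TPM. *PV42A* held 212.07 TPM in replicate 2 beside 226.34 to 229.22 TPM, and *XTH9* held 31.58 TPM in replicate 2 beside 28.41 to 28.94 TPM. *ADPG2* held 14.64 TPM in replicate 3 beside 11.4 to 11.87 TPM, and AT1G69800 held 46.53 TPM in replicate 4 beside 49.13 to 49.57 TPM.

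For 41 of the 78 named genes the Glc effect on the log2 scale differed with and without ABA in limma, by the test of the difference on all 16 libraries. Over all 17500 genes tested it was lower with ABA for 1.66% and higher for 1.31%. The difference, the effect with ABA minus that without it, was positive for AT1G29080 (1.05), *anac048* (0.80), *PYL6* (0.77), *MAPKKK20* (0.74), AT1G80440 (0.72), *GDU3* (0.70), *PYL4* (0.68), *GA3OX1* (0.66), *STP4* (0.52), *ABI4* (0.51) and *EXPA1* (0.50). It was -1 or lower for AT3G05260 (-1.77), AT4G25580 (-1.69), *RAB18* (-1.65), *DIN6* (-1.51), AT3G16120 (-1.50), AT5G45310 (-1.49), *TSPO* (-1.45), AT3G07255 (-1.44), AT5G05220 (-1.35), *PV42A* (-1.35), *RD29A* (-1.23), *GPT2* (-1.10), *BT2* (-1.08), *COR413-PM1* (-1.07) and *LTI65* (-1.04). The other negative differences were those of *NCED9* (-0.97), *PYL13* (-0.85), *TPS6* (-0.75), *SOM* (-0.69), *TPS11* (-0.65), *HAI3* (-0.64), *ABI5* (-0.62), AT1G69800 (-0.57), *DRM1* (-0.51), *GLN2* (-0.50), *HAI2* (-0.49), *MCCA* (-0.45), *ABF4* (-0.44), *PP2CA* (-0.40) and *LHCB4.1* (-0.29). Some of these genes were very low without ABA. Control and Glc means were 0.59 and 0.84 TPM for *DIN6*, 0.62 and 0.80 TPM for *RD29A*, 1.21 and 1.365 TPM for AT5G05220, and 1.525 and 1.955 TPM for AT3G07255. These lie near the 0.5 added before the log, so a Glc effect without ABA is understated there. The genes were named partly by their change from ABA to ABA + Glc, which is 1 side of this difference, so the count among them is not read further.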

How the results depend on the processing

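From ABA to ABA + Glc, 67 genes rose in a fit on the libraries of the contrast alone, against 166. Leaving out each library in turn gave 114 to 202 rises and 259 to 382 falls, and 73 rises and 224 falls passed every time. For Glc without ABA the ranges were 87 to 201 rises and 185 to 513 falls, with 87 rises and 185 falls without control replicate 1 and 223 falls without Glc replicate 1. The difference between both Glc effects was higher with ABA for 155 to 298 genes and lower for 213 to 337. For the ABA to ABA + Glc comparison, a pseudocount of 0.1 gave 166 rises and 348 falls, a pseudocount of 1 gave 162 and 390, no filter 125 and 336, a filter at 10 TPM 148 and 297, equal library sums 221 and 323, no variance trend 141 and 347, and no fold minimum 219 and 424. Equal sums moved the median of all genes to 0.018. Same-numbered ABA and ABA + Glc libraries deviated with correlations of -0.0935 to 0.0794, and libraries of different number with -0.0666 to 0.0829. These values gave no sign of pairing by number, but cannot exclude a small effect shared by libraries of the same number. With the replicate block 136 genes rose and 334 fell. None of the 78 named genes reversed direction past the threshold under any alternative run. Of 78 named genes, 62 stayed on the same side of the threshold without both replicates 3. The filter at 10 TPM left 64 of them to test. No fit on its own groups alone exists for the difference between both effects, which needs all groups. The cause of these changes was not tested, and with depth unknown, low genes cannot be separated from counting noise.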

Other observations

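Some families outside the lists had several changed members from ABA to ABA + Glc. They were chosen after the values were seen, so their counts are descriptions. Over all genes tested 2.14% fell and 0.949% rose. All 3 tested genes of the AFP family, named for binding ABI5 protein, which hold back ABA response, fell, *AFP3* (-0.74, SE 0.11, limma adjusted p = 0.000731), *AFP1* (-0.69, SE 0.14, limma adjusted p = 0.00728) and *AFP2* (-0.34, SE 0.09, limma adjusted p = 0.0374). *AFP3* held 18.2, 15.5, 17 and 20.0 TPM in ABA replicates 1 to 4 and 12, 8.43, 10.7 and 10.5 TPM in ABA + Glc replicates 1 to 4. Of 58 genes annotated as LEA or dehydrin proteins, 18 fell and 0 rose (22 and 0 without both replicates 3, median -0.24 with all libraries). Of 6 cytokinin response factor genes 3 rose, *CRF1* (0.43), *CRF3* (0.37) and *CRF4* (0.37), as they did in number without both replicates 3.

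The trehalose phosphate phosphatase genes *TPPF* (-0.93, SE 0.18, limma adjusted p = 0.00697) and *TPPG* (-0.83, SE 0.13, limma adjusted p = 0.00118) fell. They were picked after the values were seen, and the other members of their family are not given here. The NAC factor gene *RD26*, raised by drought and ABA, fell (-0.86, SE 0.18, limma adjusted p = 0.00872) and held 7.59, 9.23, 8.15 and 9.21 TPM in ABA replicates 1 to 4 and 4.51, 3.53, 5.46 and 4.58 TPM in ABA + Glc replicates 1 to 4. Of 53 NAC genes tested 5 rose and 4 fell, and 1 rose and 3 fell without both replicates 3. *SGR1*, which acts in chlorophyll breakdown, fell (-0.69, SE 0.10, limma adjusted p = 0.000867). Of 54 genes of CCCH zinc finger proteins 5 fell and 2 rose, and the median over the family was 0.01. Among the falls were *TZF5* (-0.72), *OZF2* (-0.69) and *OZF1* (-0.65). Of 21 serine carboxypeptidase-like genes 3 rose and 0 fell, with the same counts without both replicates 3.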
